A study of Canis lupus familiaris with 26 samples.

Results

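The adhesion genes *CDH11*, *PCDH7*, *ARVCF*, *ITGA11*, *ITGA5*, *CD44* and *SDK1* were followed dog by dog in laser-captured mammary stroma. They are 7 of the 18466 genes in the count table, and were picked by symbol because earlier analyses of these same samples had drawn attention to them. The values that compare the tissues below are therefore a description and not a test of these genes. Cadherins and protocadherins join neighbouring cells through calcium-dependent extracellular repeats, and catenins of the p120 family, to which ARVCF belongs, bind the cytoplasmic tail of classical cadherins. Integrins are pairs of an alpha and a beta subunit that hold cells to matrix proteins, and CD44 is the main cell surface receptor for hyaluronan. In connective tissue these receptors set how fibroblasts attach to one another and to the collagen and fibronectin around them.

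The series holds 26 samples from 13 female dogs of several breeds, whose simple adenomas, benign tumours of the mammary epithelium, had been surgically removed. Each dog gave 1 sample of adenoma-associated stroma (AAS, called cancer-associated stroma in the sample labels) and 1 of normal stroma that lay beside unaltered glands of the same slide, away from the tumour. The blocks were archival, fixed in formalin and embedded in paraffin (FFPE). The comparison used 12 dogs of 6 to 13 years whose blocks were 4 to 29 months old, since the normal stroma sample of pair 14 held only 83727 counts. Both groups come from tumour-bearing animals, so that the normal stroma is not that of healthy dogs.

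Total estimated counts ran from 419770 to 1614120 over these 24 samples. The AAS sample of pair 7 stood apart, with 84.9% of its counts in a single gene and 93673 counts left for all others. Values are given as normalized CPM, that is counts scaled for depth and library composition (TMM). In this unit 3 counts were worth 1.53 to 6.37 in normal stroma samples and 1.53 to 28.0 in AAS samples, with pair 7 the highest. Such floors cover counting error only. Of the fixed fibroblast markers, 8 had an identifier (*COL1A1*, *COL1A2*, *COL3A1*, *DCN*, *PDGFRA*, *THY1*, *FBLN1* and *VIM*), and their summed level was 2450 to 22676 normalized CPM in normal stroma (median 6445) and 783 to 8028 in AAS (median 2961). This sum was higher in AAS in 2 of 12 pairs.

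In AAS the cadherin *CDH11* was higher in every one of the 12 pairs, though in pair 7 on 5 AAS counts. The protocadherin *PCDH7* was higher in 11 pairs, whereas *ITGA11*, *ARVCF*, *SDK1*, *ITGA5* and *CD44* had negative fold changes. All 7 passed the filter on low counts. A gene was called when its adjusted p was under 0.05 and its log2 fold change exceeded 1 in size. By edgeR 4 of the 7 were called, *CDH11* as higher and *ITGA11*, *ARVCF* and *SDK1* as lower in AAS. Of all 4544 tested genes 1.8% were called, 0.616% as higher and 1.19% as lower, and of the tested genes with a symbol 3.77% were called, 1.35% as higher and 2.42% as lower. With the pair number in the model edgeR called 5 of the 7 and 2.53% of all tested genes, DESeq2 called 5 of the 7 and 2.9%, and DESeq2 with the pair number 6 of the 7 and 5%. Nothing can be read from the larger share among the 7, which were chosen on this contrast. The CPM ranges of the groups overlapped for all 7, as they did for all but 0.22% of the tested genes.

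**Figure D1:**
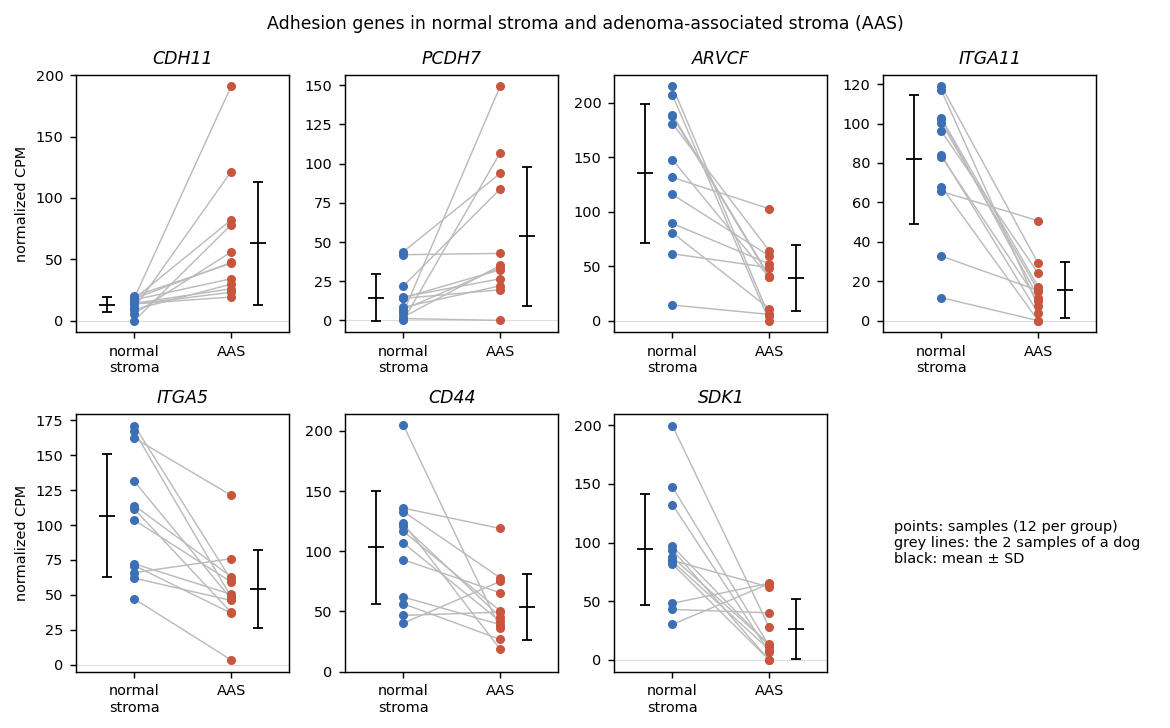
Normalized CPM (vertical axes, each starting at or below 0) of the 7 genes in 12 normal stroma and 12 AAS samples, with grey lines joining the samples of a dog and black bars giving mean ± SD. The lines rise in all 12 pairs for *CDH11* and fall in all 12 for *ITGA11* and *ARVCF*. For *ITGA11* the AAS sample of pair 7 held 0 counts at a floor of 28.0, so that this line gives no direction. For *CDH11* the same sample held 5 counts.

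*CDH11* (ENSCAFG00000020425) encodes cadherin-11, a type II cadherin typical of mesenchymal cells. Normal stroma held 0 to 20.0 normalized CPM with a median of 13.9, and AAS held 19.2 to 191 with a median of 47.1. Thus 11 of the 12 AAS samples lay above the highest normal stroma sample, and only the AAS sample of pair 3 lay just below it. The means were 13.1 ± 5.96 and 62.9 ± 50.2 (SD, n = 12 each), with a log2 fold change of 2.25 (standard error 0.44), or 4.76-fold. In AAS pairs 15 and 8, with 191 and 121 normalized CPM, were the highest, and the SD of the log2 values was 0.98 in normal stroma and 0.97 in AAS. The counts behind these values were small, 0 to 35 in normal stroma and 5 to 100 in AAS. Pair 7 held the highest normal stroma value, 20.0 from 12 counts, and its AAS value of 46.7 came from 5. With so few counts this pair says little on direction.

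*PCDH7* (ENSCAFG00000016342), which encodes protocadherin-7, ranged from 0 to 43.8 normalized CPM in normal stroma (median 11.2) and from 0 to 149 in AAS (median 34.3). Only 4 AAS samples, those of pairs 7, 15, 8 and 13, exceeded every normal stroma sample, and the value of 149 in pair 7 came from 16 counts. The means were 14.6 ± 14.7 and 53.8 ± 44.3 (SD, n = 12 each), with a log2 fold change of 1.79 (standard error 0.57) that was not called by edgeR. Pair 10 was the exception, with 1 count in normal stroma and 0 in AAS at a floor of 10.5 normalized CPM, which gives no direction. Without pair 7 the log2 fold change was 1.47, and DESeq2 called the gene both with and without the pair number in the model. In normal stroma the level of *PCDH7* moved with depth (r = 0.68 with the log2 library size over 12 samples, against -0.03 in AAS), and the part of depth in these values was not tested.

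*ARVCF* (ENSCAFG00000014232) encodes a p120-family catenin of adherens junctions. Normal stroma held 14.3 to 215 normalized CPM (median 140) and AAS 0 to 103 (median 40.4). Pair 15 had little *ARVCF* in either tissue, with 14.3 and 5.73, while pair 3 went from 215 to 4.00 and pair 10 from 207 to 0. All 12 pairs were lower in AAS, although in pair 7, with 131 and 103, the AAS value came from 11 counts. In pair 15 the values came from 14 and 3 counts, so that its AAS value lay at the floor. The log2 fold change was -1.84 (standard error 0.44), or 3.58-fold lower, with means of 135 ± 64.0 and 39.0 ± 30.2 (SD, n = 12 each). With pair 14 added it was -1.37 and was no longer called, and with the pair block on the same 13 pairs it was -1.71 and called.

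*ITGA11* (ENSCAFG00000017482) encodes the alpha-11 subunit, which with beta-1 forms a collagen receptor of fibroblasts. It ran from 11.6 to 119 normalized CPM in normal stroma (median 90.0) and from 0 to 50.7 in AAS (median 13.5). The groups overlapped mainly through the low normal stroma of pairs 7 and 6, with 11.6 and 32.8, and the high AAS of pair 12, with 50.7. Lower in AAS in 12 of 12 pairs, *ITGA11* had the most negative log2 fold change of the 7 genes, -2.33 (standard error 0.43), or 5.02-fold lower. By itself pair 7 gives no direction here. Its AAS sample held 0 counts at a floor of 28.0 normalized CPM, above the 11.6 of its normal stroma. The means were 81.9 ± 32.8 and 15.4 ± 14.2 (SD, n = 12 each). Within AAS its level moved with depth (r = 0.62 with the log2 library size over 12 samples), and the part of depth in these values was not tested. The gene was still called without pair 7 and, in a separate fit, without pair 10. Of the 8 fibroblast markers 3 were called as lower in AAS, beside 1.19% of all tested genes and 2.42% of those with a symbol. They were *DCN*, a collagen-binding proteoglycan (-1.96), *FBLN1* (-1.71) and *VIM* (-1.13). The other 5 were not called, with log2 fold changes from -1.36 (*COL1A2*) to -0.39 (*THY1*, higher in AAS in 5 of 12 pairs). In bulk tissue fewer cells of a type cannot be told apart from less RNA per cell, and the part of the fibroblast share in the level of *ITGA11* was not tested.

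*ITGA5* (ENSCAFG00000006491) encodes the alpha subunit of the fibronectin receptor. Its samples spread from 47.1 to 171 normalized CPM in normal stroma (median 107) and from 3.30 to 121 in AAS (median 49.4). The 2 groups shared most of their range, and AAS was lower in 11 of 12 pairs, with pair 5 as the exception at 65.9 in normal stroma against 75.9 in AAS. The means were 107 ± 44.0 and 54.1 ± 27.7 (SD, n = 12 each), and the log2 fold change of -0.96 (standard error 0.32) was not called. Blocking on the pair number moved it to -1.07, which was called.

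*CD44* (ENSCAFG00000006889) ran from 40.3 to 205 normalized CPM in normal stroma (median 112) and from 18.7 to 119 in AAS (median 47.5). Pairs 4 and 12 were higher in AAS and the other 10 lower. At 103 ± 47.0 against 53.8 ± 27.2 (SD, n = 12 each), the log2 fold change of -0.93 (standard error 0.29) was close to that of *ITGA5* and was not called. It reached -1.04 and was called when pair 14 was added, but was at -0.998 and not called with the pair block on the same 13 pairs. The lowest AAS value, 18.7 in pair 7, rests on 2 counts.

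*SDK1* (ENSCAFG00000016192) encodes sidekick-1, an immunoglobulin-type adhesion molecule best known from neuronal synapses. Normal stroma held 30.2 to 200 normalized CPM (median 86.2) and AAS 0 to 65.4 (median 12.7). In AAS 8 samples lay below the lowest normal stroma sample, whereas pairs 7, 12, 9 and 15 held 65.4, 65.0, 62.2 and 40.1. In pairs 7 and 12 AAS was the higher tissue, but the 65.4 of pair 7 came from 7 counts, beside 48.2 in its normal stroma. The log2 fold change was -1.91 (standard error 0.49), or 3.76-fold lower, and the SD of the log2 values was 0.75 in normal stroma and 1.79 in AAS (n = 12 each). *SDK1* lost its call when pair 4, 5, 6, 8, 11 or 13 was left out, with log2 fold changes from -2.24 to -1.75 over the omission of each pair in turn. *CDH11*, *ITGA11* and *ARVCF* kept theirs in all 12 of these fits.

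**Figure D2:**
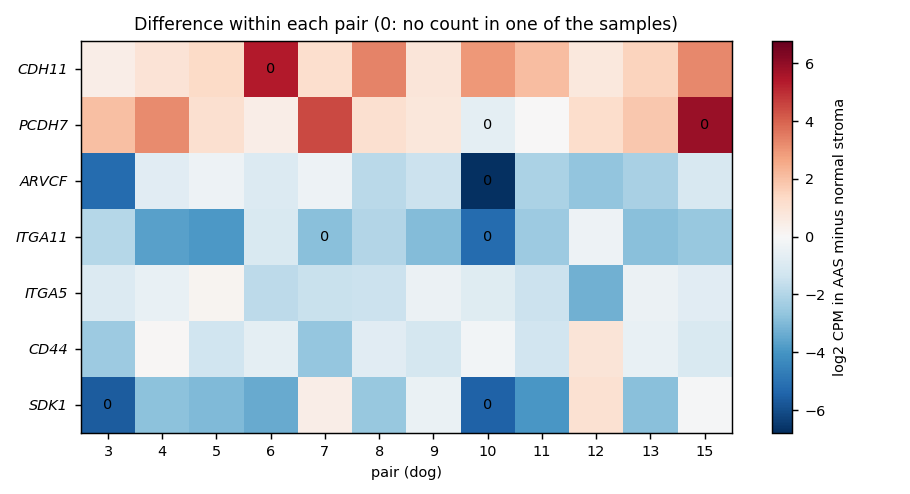
Log2 CPM (prior count of 2) in AAS minus normal stroma for each gene (rows) and pair (columns), red for higher and blue for lower in AAS, with a 0 where one or both samples held no count. Pair 10 has 4 such cells, and pair 12 is red for both *CD44* and *SDK1*.

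Read by dog rather than by gene, 7 of the 12 pairs showed the majority direction for all 7 genes. A further 4 pairs did so for 6 genes, and pair 12 did so for 5, since *CD44* and *SDK1* were higher there in AAS. Pair 7, one of these 4, rests on few AAS counts, among them 0 of *ITGA11*, 5 of *CDH11* and 7 of *SDK1*. Pair 10, another of these 4, differed only in *PCDH7*, with 1 count against 0, which gives no direction. The AAS sample of pair 10, the shallowest of the 24 with 419770 counts, had 0 counts of *ITGA11*, *SDK1*, *PCDH7* and *ARVCF* together, at a floor of 10.5 normalized CPM. It still held 119 of *CD44*, the highest AAS value, and 56.0 of *CDH11*. Without this pair the same number of genes, 4, was called.

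Pair 14, which was not among the 12 pairs above, gave a mixed picture. Values of this pair were scaled with all 13 pairs, and 3 counts were worth 22.2 normalized CPM in its normal stroma. *SDK1* went from 177 (24 counts, 95% Poisson interval 114 to 264) in normal stroma to 21.0 (21 counts, 13.0 to 32.1) in AAS, and *CD44* from 207 (137 to 299) to 47.0 (34.6 to 62.6). *ITGA11* went from 66.5 (30.4 to 126) to 13.0 (6.93 to 22.3). For these 3 genes AAS was the lower tissue, as in most pairs. *PCDH7* had 0 counts in normal stroma (up to 27.2) and 25.0 (16.2 to 36.9) in AAS, which gives no direction at this depth. *ITGA5*, with 44.3 (16.3 to 96.4) and 120 (99.6 to 144), and *ARVCF*, with 73.9 (35.4 to 136) and 206 (179 to 236), were higher in AAS, the opposite of most pairs, and their intervals did not overlap. *CDH11* had 3 counts in normal stroma, 22.2 normalized CPM (4.57 to 64.8), and 13.0 (6.93 to 22.3) in AAS, which likewise gives none. The intervals cover counting error only and compare single libraries.

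**Figure D3:**
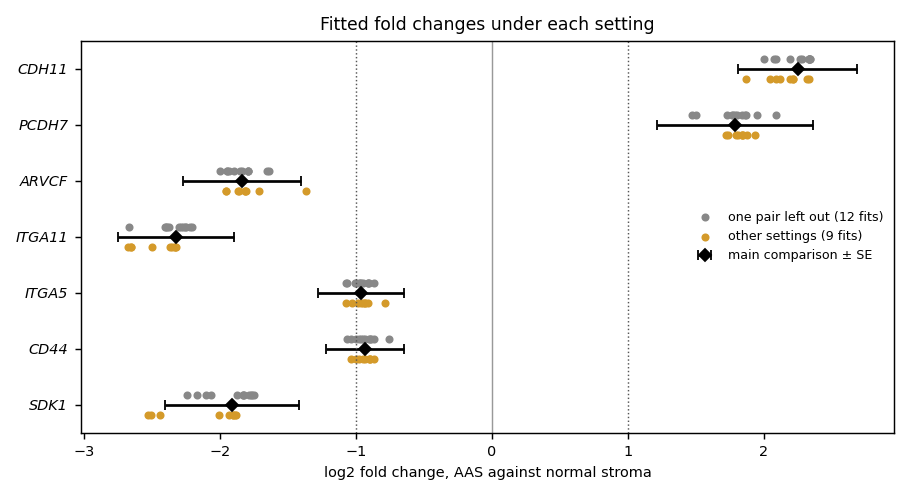
Log2 fold changes of AAS against normal stroma (horizontal axis), with black diamonds for the main comparison ± standard error, grey points for the 12 fits that leave out a pair and yellow points for 9 other settings; dotted lines mark a log2 fold change of 1 in either direction. No point crosses 0, and *ARVCF* reaches its least negative value of -1.37 with pair 14 added and no pair block.

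Other adhesion genes were taken from 6 lists of 168 symbols in all, of which 50 had an identifier and 36 passed the filter. None of the 36 was called in the main comparison by edgeR, and 17 had an unadjusted p below 0.05, 6 higher and 11 lower, beside 477 of all 4544 tested genes and 427 of the 1856 with a symbol. DESeq2 called 2 of the 36, *COL1A2* and *TNC*, beside 117 of the 1856 tested genes with a symbol. With the pair number in the model edgeR called 2, *COL1A2* and *DDR2*, beside 101 of the 1856, and DESeq2 called 7, beside 203. The median log2 fold change of the 36 was -0.33, beside 0.01 for all tested genes and -0.05 for the 1856 of them with a symbol. Symbols were more often known for called genes, so that the last value is the nearer background.

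Among integrin subunits 6 were tested and 0 called, with 4 of 6 fold changes above 0. *ITGB1*, the beta-1 partner of both alpha-11 and alpha-5, averaged 174 normalized CPM in normal stroma against 145 in AAS, at a log2 fold change of -0.25 (standard error 0.18, edgeR adjusted p = 0.760), with 6 pairs in each direction. Its partner subunits, chosen on this contrast, were lower in 12 and 11 of 12 pairs, with 0 AAS counts of *ITGA11* in pair 7. For beta-1 no difference beyond the spread between samples was found. Whether the subunits differ from one another was not tested. *ITGAM*, a leukocyte integrin, was at 0.24 (standard error 0.19, edgeR adjusted p = 0.773).

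The 7 tested cadherins and protocadherins likewise gave 0 calls, with a median log2 fold change of 0.03. DESeq2 with the pair block called 2 of them, *FAT4* (-1.37, DESeq2 adjusted p = 0.00969, lower in 11 of 12 pairs) and *PCDH18* (-1.71, DESeq2 adjusted p = 0.0455, lower in 10), for which edgeR gave adjusted p-values of 0.290 and 0.444. *CDH1*, the epithelial E-cadherin, had means of 104 and 153 normalized CPM at a log2 fold change of 0.54 (standard error 0.25, edgeR adjusted p = 0.438), and AAS was the higher tissue in 9 of 12 pairs. *CDH16*, a cadherin known from kidney epithelium, had the most counts of this list and was at -0.37 (standard error 0.17, edgeR adjusted p = 0.416). The only tested catenin partner was *AFDN*, which links nectins to actin, at 0.59 (standard error 0.30, adjusted p = 0.511 by edgeR). *THY1*, the only immunoglobulin-type molecule tested, was at -0.39 (standard error 0.24, adjusted p = 0.643 by edgeR).

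Of the matrix ligands and other matrix receptors 9 of 11 had fold changes below 0, with a median of -0.57 on the log2 scale, and 0 of 11 were called. Collagen I is a ligand of alpha-11 beta-1. *COL1A1*, lower in 10 of 12 pairs, was at -1.26 (standard error 0.50, edgeR adjusted p = 0.301), and *COL3A1* at -1.03 (standard error 0.48, edgeR adjusted p = 0.430). *COL1A2*, *DDR2*, a collagen-binding receptor kinase, and *TNC*, the matrix protein tenascin-C, were named after their values were seen, as were *FAT4*, *PCDH18*, *ZYX* and *TNS3*. *COL1A2*, lower in 12 of 12 pairs, was at -1.36 (standard error 0.38, edgeR adjusted p = 0.0532) and at -1.44 with the pair block (edgeR adjusted p = 0.00204), and DESeq2 gave an adjusted p of 0.0106. *DDR2*, lower in 11 of 12 pairs, was at -1.05 (standard error 0.38, edgeR adjusted p = 0.210) and at -1.31 with the pair block (edgeR adjusted p = 0.0427). *TNC*, higher in 10 of 12 pairs, was at 2.34 (standard error 0.76, edgeR adjusted p = 0.135), with a DESeq2 adjusted p of 0.0498. DESeq2 with the pair block called *ZYX* (-1.74, DESeq2 adjusted p = 0.0130, lower in 12 of 12 pairs) and *TNS3* (1.90, DESeq2 adjusted p = 0.00625, higher in 11) among the 10 focal adhesion and ERM linker genes, for which edgeR gave adjusted p-values of 0.472 and 0.355. In the main comparison 0 of these 10 were called, and *TNS1* (-0.88, standard error 0.34, adjusted p = 0.264 by edgeR) and *FERMT2* (-0.39, standard error 0.25, adjusted p = 0.684 by edgeR) had the most counts.

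**Figure D4:**
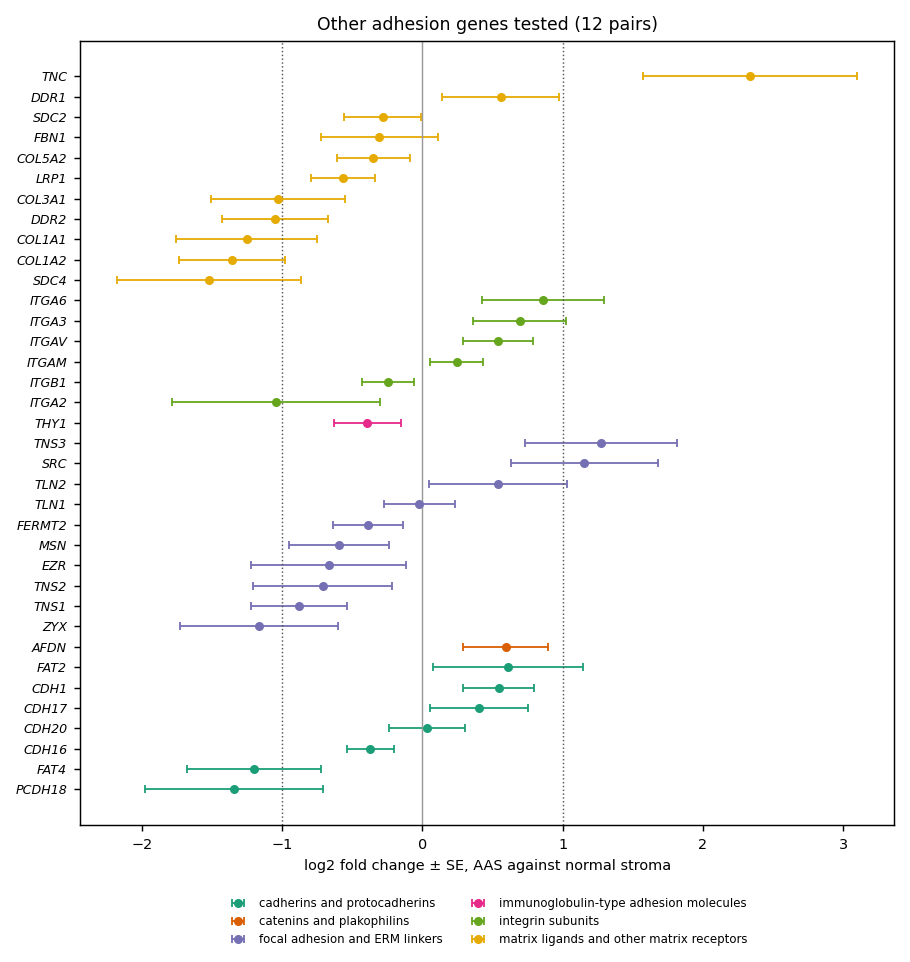
Log2 fold change ± standard error of AAS against normal stroma (horizontal axis, 12 pairs) for the 36 other adhesion genes tested, coloured by list, with dotted lines at a log2 fold change of 1 in either direction. None was called in this comparison, and *TNC* at 2.34 lies farthest to the right.

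Of the markers of other cells *CD74*, the invariant chain of antigen presentation, was the only gene called, at a log2 fold change of 2.18 and higher in AAS in 12 of 12 pairs. The leukocyte markers with an identifier (3 of 9) summed to 163 to 278 normalized CPM in normal stroma and 236 to 488 in AAS, with AAS the higher in 11 of 12 pairs. The other leukocyte markers were *ITGAM*, given above, and *CSF1R*, at -0.84 and higher in AAS in 4 of 12 pairs (edgeR adjusted p = 0.665). None of the lists that follow had a gene called, but not every gene with an identifier passed the filter and was tested. Tested were 2 of 2 mural or myoepithelial, 2 of 4 epithelial, 1 of 2 endothelial, 1 of 2 epidermal and 0 of 1 adipocyte. For the mural or myoepithelial markers (2 of 7) the sums were 15.0 to 146 and 18.7 to 424, higher in 11 of 12 pairs, and for the epithelial markers (4 of 13) they were 99.4 to 238 and 95.5 to 441, higher in 9 of 12. Endothelial markers (2 of 8) lay at 9.22 to 89.2 and 0 to 63.4, epidermal markers (2 of 6) at 0 to 157 and 1.10 to 78.3, and the adipocyte marker *LEP* (1 of 6) at no more than 6.76. The part of these cells in the values of the 7 adhesion genes was not tested.

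Within a tissue, no common rise and fall of the 7 genes from dog to dog was found, although 12 samples per group could miss moderate relations. Of the 21 values of r, 14 were positive in normal stroma (median 0.19) and 12 in AAS (median 0.003). Over 21 pairs of genes in each group, Pearson's r of log2 CPM ran from -0.37 to 0.57 in normal stroma and from -0.65 to 0.59 in AAS (n = 12 dogs each). None of the 42 relations passed after Benjamini-Hochberg adjustment in a two-sided permutation test, while 3 had an unadjusted p below 0.05 by Pearson's r and 1 by Spearman's rho. *CD44* and *ARVCF* in normal stroma were the pair that reached this by both (r = 0.57, permutation p = 0.0443, adjusted p = 0.544; rho = 0.65, permutation p = 0.0250, adjusted p = 0.832), and r was 0.65 without the 2 samples farthest from the median of *CD44*. In AAS, *PCDH7* with *CD44* (r = -0.65, permutation p = 0.0234, adjusted p = 0.544; rho = -0.44, permutation p = 0.155, adjusted p = 0.832) went to -0.01 without the 2 samples farthest from the median of *PCDH7*. Without the same samples *PCDH7* with *ARVCF* (r = 0.59, permutation p = 0.0447, adjusted p = 0.544; rho = 0.15, permutation p = 0.635, adjusted p = 0.938) went to -0.21. Both values of r thus depended on those samples, although leaving out its extremes also narrows the range of *PCDH7*.

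The genes most like each of the 7 were sought by Spearman's rho of deviations from the group means over 24 samples, among 1855 other tested genes with a symbol, and are given as a description. *CD44* had the closest, *WWP2*, a ubiquitin ligase, at 0.88, which also ranked first without pair 7, followed by *SGK1* at 0.72. For *CDH11* they were *EMP1* (0.72) and *CAND1* (0.65), first and second again without pair 7, although the mean of *EMP1* was lower in AAS, 14.4 against 42.4 normalized CPM. *ITGA11* was nearest to *ACTR1B* (0.72) and *PKD2* (0.71), and *ITGA5* to *AKAP2* and *PTGIS* (0.60 each). *SDK1* came with *PXDN* (0.67) and *SHROOM1* (0.65), *PCDH7* with *C12H6orf132* (0.76) and *TRRAP* (0.69), and *ARVCF* with *TSR3* (0.75) and *LRP1* (0.74). Without pair 7 *AKAP2* went to rank 17 for *ITGA5* and *TSR3* to rank 19 for *ARVCF*. None of these 14 genes was called between the tissues. Among the 7 themselves rho did not exceed 0.35, for *SDK1* with *PCDH7*. These points share libraries, dogs and depth, and many of the counts are low.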

How the data were processed

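RNAseq of laser-captured FFPE stroma was analysed. Per the labels and the study's methods, the authors quantified transcripts with kallisto 0.44.0 against Ensembl transcripts of CanFam3.1, with sequence-based bias correction, and summed them per gene with tximport. They deposited estimated counts (expected counts, not normalized) for 18466 genes in 26 samples. All values were whole numbers, so rounding changed 0 of them. The strand setting is not given in the sources used here, and total counts are in the report.

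Groups and pair numbers came from the sample titles. A pair is 1 dog. Deviations from the group means had a mean r of 0.125 between samples of a pair (-0.03 to 0.40). Between samples of different pairs the mean r was -0.01 (-0.27 to 0.42), so that the ranges overlapped. As in the study, pair 14 was left out. No pair term was used, since the methods name none. After filterByExpr and TMM scaling, AAS was compared with normal stroma by quasi-likelihood F-tests (edgeR 4.0.16, R 4.3.3), with Benjamini-Hochberg adjustment over 4544 genes. Called means an adjusted p below 0.05 and a fold change beyond 2. Log2 CPM carry a prior count of 2. DESeq2 1.42.0 served as an alternative, and is the tool the authors used. Correlations used 100000 permutations (numpy 2.4.6, Python 3.11.15). Fits were tested on simulated data.

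Symbols for 3302 identifiers came from the readable parts of 2 supplementary tables. Those tables' fold changes and p-values were not used. Genes named are the 7, any list gene called, the 2 highest-count genes of each list, tested neighbours, and the 2 likest genes of each. Not every gene under this rule is reported here. The members, lists and alternatives were chosen with earlier results of these data known. Leaving out pairs other than 7, and all 13 pairs with the block, were added after seeing the data. *ZNF385A* beside *ITGA5* (log2 fold change -0.43, adjusted p = 0.902) and *FOXK1* beside *SDK1* (-0.86, adjusted p = 0.647) were not called. No gene lengths were used, so levels of different genes are not compared.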

Additional observations from a re-analysis of the deposited data

How the results depend on the processing

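The log2 fold changes of the 7 genes kept their sign in all 21 alternative fits, and each moved by less than the SD of its differences over the pairs. That SD describes single pairs and is wider than the standard error of the fit. *ARVCF* moved by more than its standard error of 0.44, from -1.84 to -1.37 with all 13 pairs. *SDK1* moved by more than its standard error of 0.49, from -1.91 to -2.53 by DESeq2 with the block. The number of the 7 called was 4 in the main comparison, 5 with the replicate block, with DESeq2 or without a filter on low counts, 6 with DESeq2 and the block, and 3 to 4 when single pairs were left out. Of all genes, 82 were called in the main comparison, 115 with the replicate block, 132 by DESeq2, 227 by DESeq2 with the block, 153 with a filter on a mean of 5 counts, 1690 without a filter, and 71 to 99 when single pairs were left out. Of the other adhesion genes 0 were called in the main comparison, 1 with all 13 pairs, with the filter on a mean of 5 counts or without pair 7, 2 with the replicate block, with DESeq2 or with all 13 pairs and the block, 4 without a filter and 7 by DESeq2 with the block. Leaving out single pairs gave 0 to 1, and *COL1A2* was the gene called without pair 6, 7, 10, 11 or 13. The cause of these differences was not tested. *COL1A1* passed without a filter only, and 0 of 42 correlations between the 7 genes passed with a prior count of 0.5, RLE scaling, Spearman's rho or without pair 7. The highest r was 0.59 in the main comparison, 0.71 with the prior count of 0.5 and 0.87 without pair 7, for *CDH11* with *ITGA11* in normal stroma (n = 11, permutation p = 0.00934, adjusted p = 0.392; rho = 0.52, permutation p = 0.108, adjusted p = 0.884), which went to 0.12 without the 2 samples farthest from the median of *CDH11*. Over the 12 pairs, blocking in edgeR changed the calls of *ITGA5*, *COL1A2* and *DDR2* and no other among the 7 and the other adhesion genes. Over 13 pairs it restored the call of *ARVCF* and ended that of *CD44*. Depth limits the low values most: 3 counts were worth up to 28.0 normalized CPM in AAS, so that a value of 0 in pair 7 or 10 does not show absence.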
